A study of Mus musculus with 8 samples.

Results

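The genes of respiratory complex I whose symbols begin with Nduf were measured in whole mammary glands of 8 mice, 43 genes out of the 19938 tested. The rule uses names and mean levels, not the difference between genotypes: the array's probe sets that the platform annotation pairs with exactly 1 gene symbol were kept, each gene was represented by its probe set with the highest mean, and every symbol beginning with Nduf entered. They comprise 6 core subunits encoded in the nucleus, 28 accessory subunits including the acyl carrier protein, Ndufa4 with its paralog Ndufa4l2, and 7 assembly factors. Ndufb4 stayed out because its probe sets are paired with several symbols.

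Complex I is the first enzyme of the mitochondrial respiratory chain. It takes electrons from NADH, passes them through a flavin and a row of iron-sulfur clusters to ubiquinone, and pumps protons across the inner membrane. Its matrix arm holds an N module, where NADH is oxidised, and a Q module, where ubiquinone is reduced; its membrane arm holds the pump. In a mammary gland such RNA comes from fat as well as from ducts, and brown or beige adipocytes are known for their dense mitochondria.

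All 8 glands came from virgin females, 5 weeks old, of mixed C57BL/6 and FVB background and all carried MMTV-Cre, in which the promoter of mouse mammary tumour virus drives Cre recombinase in mammary epithelium. The 4 test mice were MMTV-Cre;Sox9 flox/flox, with recombination sites around both copies of the transcription factor gene Sox9. The 4 controls were MMTV-Cre;Sox9 flox/+, with 1 floxed and 1 wild-type copy, so both genotypes carried the recombinase and at least 1 floxed copy. Tissue was cut from the fourth gland next to its lymph nodes and put on 1 Affymetrix Gene 1.0 ST array per mouse; precision is limited by how few arrays there are. The labels' tissue identifiers begin with R in all 4 controls and with S or T in the flox/flox mice; what the letter stands for is not stated, and it cannot be told apart from the genotype.

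Deposited intensities had medians of 159 to 178 per array. The readings from here on are not the deposited values but intensities after quantile normalization of the arrays. Sox9 (probe set 10382328) read 424, 448, 401 and 366 in control replicates 1 to 4, and 298, 356, 287 and 351 in flox/flox replicates 1 to 4. The groups did not overlap, and the log2 difference was -0.33 ± 0.09 (SE), with p = 0.0286 in a 2-sided exact permutation test, the smallest that 4 against 4 arrays allow, and a limma adjusted p of 0.256. Whether its probes lie in the part that Cre removes is not stated. In whole glands fewer expressing cells and less RNA per cell cannot be told apart. Epithelial and fat markers of the labelled tissue were present in every gland: Krt8 read 2289 to 2951, Epcam 839 to 1296 and the adipocyte hormone gene Adipoq 4949 to 6398. Control replicate 2 stood apart in lymph node genes, with the B cell gene Cd79a at 1073 against 32 to 69.7 in the other 7 glands. For skeletal muscle, another tissue rich in mitochondria, markers summed to 2855 to 3173 in controls and 2779 to 2999 in flox/flox glands over 16 genes. Their median difference was -0.05. Myh1 read only 46.9 to 74.6 and Ckm 124 to 172, while Acta1 read 453 to 594. Detection calls were not used, so how much of this sum is background was not tested.

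Most Nduf genes read a little higher in flox/flox than in control glands, but none passed the test. Every difference is the flox/flox mean minus the control mean of log2 intensity with 16 added first, and its error is limma's standard error. Of the 43 members 36 (83.7%) had a difference above 0, against 47.4% of all genes, and the median was 0.10 against -0.01 over all genes. No member had an adjusted p under 0.05 (limma, Benjamini-Hochberg adjustment over all 19938 genes), a mark that 0.0401% of all genes reached; the smallest among the members was 0.239. At an unadjusted p under 0.05 there were 7 members, all higher, against 4.81% of all genes higher and 5.46% lower: the core subunits Ndufs1 and Ndufs7, the membrane arm subunits Ndufb6, Ndufb9 and Ndufc1, the acyl carrier protein Ndufab1 and the assembly factor Ndufaf4. In 4 of these, Ndufaf4, Ndufb6, Ndufab1 and Ndufc1, every flox/flox gland read above every control, a share of 9.30% of the members against 2.74% of all genes. No member was lower without overlap, as 3.16% of all genes were. With arrays centred on their medians in place of quantile normalization, Ndufaf4 was the 1 member of 43 left without overlap, where 3.25% of all genes were, a share near that background. Without control replicate 1 the members without overlap numbered 8 (4.34% of all genes), and without flox/flox replicate 4 they numbered 7 (4.87%).

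These counts also varied with single glands. The unadjusted count was 4 without control replicate 2, without control replicate 3 or without flox/flox replicate 2, with medians of 0.10, 0.05 and 0.08, and 3.92% to 4.26% of all genes were called in those fits. Without flox/flox replicate 1 the count was 5, where 3.997% of all genes were called, and the median was 0.07. With control replicate 3 and flox/flox replicate 1 both left out, a choice made after seeing the data, 28 members had a difference above 0. The share of all genes above 0 was not computed for that fit. The members' median was 0.04 there, against -0.0079 over all genes. In the same fit 1 member, Ndufaf4, had an unadjusted p under 0.05, no more than the 3.03% of all genes called there. The 4 members without overlap had unadjusted p under 0.05 in each of the 8 fits that left out 1 array. Ndufs1, Ndufs7 and Ndufb9 did so in 2 of 8 each. The 4 were picked for their separation in these same arrays, which leaving out 1 array cannot undo. Their 8 of 8 is therefore no independent support.

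**Figure D1:**
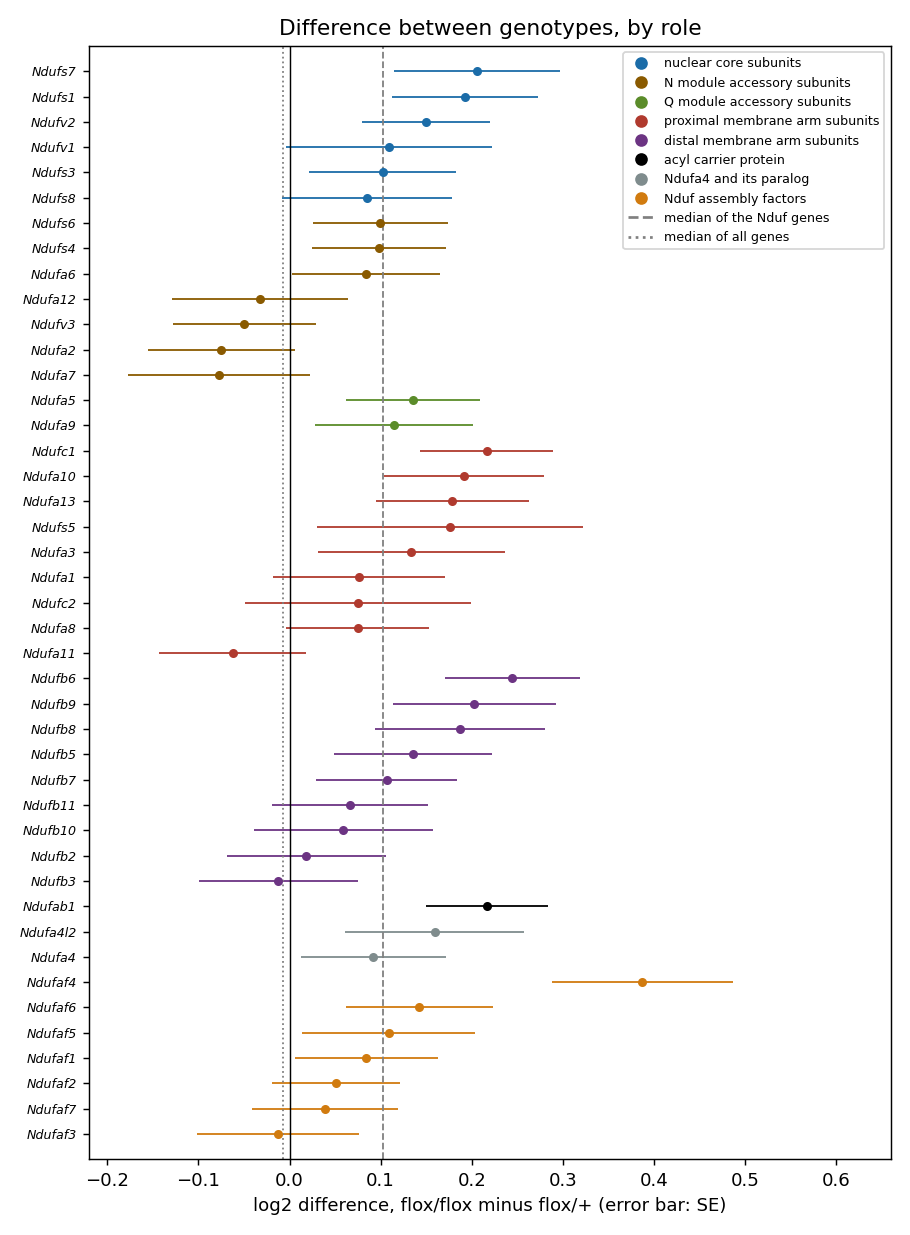
Difference between genotypes for the 43 Nduf genes, as log2 of flox/flox minus flox/+ on the horizontal axis with limma's SE as error bars, 4 glands per genotype. Genes are coloured by role; the dashed line is the members' median (0.10) and the dotted line that of all genes (-0.01), and 36 of the 43 points lie right of 0.

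Core subunits carry the flavin and the iron-sulfur clusters. All 6 measured had a positive difference, with a median of 0.13 and a range of 0.09 to 0.21. At an unadjusted p under 0.05 there were 2, against 4.81% of all genes higher. Ndufs1 (probe set 10355084), the largest subunit and a carrier of iron-sulfur clusters, read 2142, 1944, 1712 and 1928 in control replicates 1 to 4 and 2359, 2223, 2056 and 2185 in flox/flox replicates 1 to 4. Control replicate 1 lay inside the flox/flox range, and 3 of the 4 flox/flox glands were above the highest control. The difference was 0.19 ± 0.08 (95% interval 0.02 to 0.37, unadjusted p = 0.0351, adjusted p = 0.455). Ndufs7 (probe set 10364744), which holds the last cluster before ubiquinone, read 1666, 1643, 1389 and 1768 in controls and 1965, 1880.1, 1978 and 1637 in flox/flox glands. Here the low values were control replicate 3 and, on the other side, flox/flox replicate 4, which lay under control replicates 1, 2 and 4. Its difference was 0.21 ± 0.09 (unadjusted p = 0.046, adjusted p = 0.476).

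Ndufv2, a small partner of the NADH-binding subunit, read 1853, 1759, 1601 and 1675 in controls and 2050.0, 1844, 1852 and 1899 in flox/flox glands, a difference of 0.15 ± 0.07 (adjusted p = 0.498). Its groups overlapped only through control replicate 1. Ndufv1, which binds NADH and the flavin, read 1796, 1757, 1559 and 1954 in controls against 2354, 1946, 1653 and 1722, and differed by 0.11 ± 0.11. Flox/flox replicate 1 was far above the other 7 glands: without it the difference was 0.0072, and without it and control replicate 3 it was -0.051. Ndufs3, of the Q module, read 2104, 2090.0, 1770.0 and 2094 in controls and 2317, 2268, 2051 and 2013 in flox/flox glands, with 3 controls close together and control replicate 3 far under them. Its difference was 0.10 ± 0.08, and its second probe set gave 0.11. Ndufs8, another iron-sulfur carrier near ubiquinone, read 688, 548, 547 and 629.8 and 706, 613, 663 and 576, with wide overlap and a difference of 0.09 ± 0.09.

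Accessory subunits of the N module, which surround the site of NADH oxidation, were the group with the lowest share of positive differences, 3 of 7, and a median of -0.03 (range -0.08 to 0.10). Ndufa7 read 431, 418, 387 and 496 in controls and 374, 441, 463 and 361 in flox/flox glands, the lowest difference of all members at -0.08 ± 0.10 (95% interval -0.30 to 0.14). Ndufa2, a subunit with a thioredoxin-like fold, read 1092, 943, 869 and 973 in controls and 942, 967, 849 and 912 in flox/flox glands (-0.07 ± 0.08). All 4 flox/flox values of Ndufa2 lay under the control mean, yet inside or just under the control range. Ndufv3 (-0.05) and Ndufa12 (-0.03) were also negative. Ndufs4, whose loss in mice causes a Leigh-like encephalopathy, stood at 0.10, Ndufs6, a zinc-binding subunit, at 0.10 and Ndufa6 at 0.08. None of these 7 had an unadjusted p under 0.05, and whether the group differs from the other roles was not tested. In the Q module Ndufa5 was at 0.14 ± 0.07 and Ndufa9, at the joint with the membrane arm, at 0.12 ± 0.09; for both genes all 4 flox/flox glands lay above the control mean.

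In the proximal membrane arm 8 of 9 subunits had a positive difference (median 0.13, range -0.06 to 0.22). Ndufc1 (probe set 10498058), a small membrane-spanning subunit, read 1054, 883, 876 and 973 in control replicates 1 to 4 and 1082, 1099, 1129 and 1087 in flox/flox replicates 1 to 4. The flox/flox glands lay close together, at 1099.5 ± 20.8 (SD, n = 4) against 947 ± 84 (SD, n = 4), and the nearest control was replicate 1. The difference was 0.22 ± 0.07 (unadjusted p = 0.0132, adjusted p = 0.33), and a second, dimmer probe set gave 0.18 ± 0.06, also without overlap. Ndufa10, a subunit with a nucleoside kinase fold, read 2012, 1908, 1783 and 2219.5 in controls and 2534, 2298, 2152 and 2069 in flox/flox glands (0.19 ± 0.09, adjusted p = 0.493). Ndufa13, also known as GRIM-19, read 624, 532, 513 and 588 and 601, 647, 711 and 604 (0.18 ± 0.08, adjusted p = 0.502). In both, all 4 flox/flox values exceeded the control mean and 2 exceeded the highest control.

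Ndufa11, a membrane subunit near the contact with complex III, was the negative exception of this arm. Its chosen probe set read 1103, 1017, 917 and 943 in controls and 1032, 906, 987 and 881 in flox/flox glands (-0.06 ± 0.08), while its other probe set gave 0.07 ± 0.09, so the sign depends on the probe set. Ndufs5 had the largest standard error of all members (0.18 ± 0.15), with 578, 609, 520.4 and 784 in controls and 783, 677, 826 and 541 in flox/flox glands. Its high and low values came in both genotypes. The remaining members of the arm were Ndufa3 (0.13), Ndufa1 (0.08), Ndufc2 (0.08) and Ndufa8 (0.07).

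In the distal membrane arm 8 of 9 measured subunits had a positive difference (median 0.11, range -0.01 to 0.24). Ndufb6 (probe set 10512093) read 1848, 1675, 1605 and 1727 in control replicates 1 to 4 and 2218, 2050.0, 1997 and 1870.2 in flox/flox replicates 1 to 4. Its lowest flox/flox gland, replicate 4, stood just above control replicate 1. Means were 2034 ± 144 (SD, n = 4) and 1713 ± 103 (SD, n = 4), a difference of 0.24 ± 0.07 or 1.18-fold (unadjusted p = 0.00739, adjusted p = 0.288). Ndufb9, a LYR-motif protein of the kind that docks the acyl carrier protein, read 1249, 1126, 1109 and 1355 in controls and 1475, 1349, 1519 and 1237 in flox/flox glands (0.20 ± 0.09, unadjusted p = 0.0452, adjusted p = 0.476). Ndufb8, often used on blots as a gauge of assembled complex I, read 815, 758, 728 and 876 and 1007, 886, 968 and 776 (0.19 ± 0.09, adjusted p = 0.529). In both, flox/flox replicate 4 lay among the controls, and for Ndufb9 flox/flox replicate 2 also lay just under control replicate 4. The others ran from Ndufb5 (0.14) and Ndufb7 (0.11) through Ndufb11 (0.07), Ndufb10 (0.06) and Ndufb2 (0.02) to Ndufb3 (-0.01).

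Ndufab1 (probe set 10567657) is the mitochondrial acyl carrier protein, which also serves fatty acid synthesis inside mitochondria. It read 1071, 1091, 998 and 1112 in controls and 1332, 1217, 1256 and 1172 in flox/flox glands, and every flox/flox gland was above every control. Means were 1244 ± 67.7 (SD, n = 4) against 1068 ± 49.5 (SD, n = 4), a difference of 0.22 ± 0.07 (unadjusted p = 0.00842, adjusted p = 0.295). A second probe set gave 0.21 ± 0.06, and its groups did not overlap either.

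Ndufa4 keeps its complex I name, although its protein is now assigned to cytochrome c oxidase. It read 3529, 3392, 3200.0 and 3760.2 in controls and 3955, 3977, 3421 and 3457 in flox/flox glands (0.09 ± 0.08, adjusted p = 0.74), so that 2 flox/flox glands were above all controls and the other 2 among them. Its paralog Ndufa4l2, a hypoxia-induced gene whose product lowers complex I activity, read 155, 113, 136 and 119 and 157, 155, 147 and 129.7 (0.16 ± 0.10, adjusted p = 0.622). For Ndufa4l2 control replicate 1 lay among the top flox/flox glands, and control replicates 2 and 4 were the lowest of the 8.

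Assembly factors build the complex and are absent from the finished enzyme. Of 7 measured 6 had a positive difference (median 0.08, range -0.01 to 0.39). Ndufaf4 (probe set 10503643), which works with Ndufaf3 on the Q module, had the largest difference of all 43 members. It read 346, 338, 253 and 280.0 in control replicates 1 to 4 and 372, 426, 409.7 and 393 in flox/flox replicates 1 to 4. All flox/flox glands were above all controls, and control replicates 3 and 4 were the lowest. Means were 400.0 ± 23.1 (SD, n = 4) against 304 ± 44.9 (SD, n = 4), and the difference was 0.39 ± 0.10 or 1.31-fold (95% interval 0.17 to 0.61, unadjusted p = 0.00263, adjusted p = 0.239). With any 1 array left out it ran from 0.31 to 0.45.

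Its partner Ndufaf3 read 359.6, 327, 268 and 341 in controls and 314, 315, 341 and 308 in flox/flox glands, a difference of -0.01 ± 0.09. Its 4 flox/flox values lay inside the control range, and the contrast between these partners was not tested. Ndufaf6 stood at 0.14 ± 0.08, Ndufaf5, which hydroxylates a core subunit, at 0.11 ± 0.10, and Ndufaf1, of the membrane arm assembly complex, at 0.08 ± 0.08. Ndufaf2, a late-acting factor, was at 0.05 ± 0.07 and the methyltransferase Ndufaf7 at 0.04 ± 0.08. For Ndufaf4, Ndufaf6, Ndufaf5, Ndufaf1 and Ndufaf7 the highest of the 8 glands was flox/flox replicate 2, not flox/flox replicate 1 that led the subunits. Assembly factors that do not carry the Nduf name gave 8 positive differences of 10 measured and a median of 0.08; Foxred1 (0.18 ± 0.07, adjusted p = 0.411) had the smallest p, and Ecsit was at 0.17 ± 0.10.

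**Figure D2:**
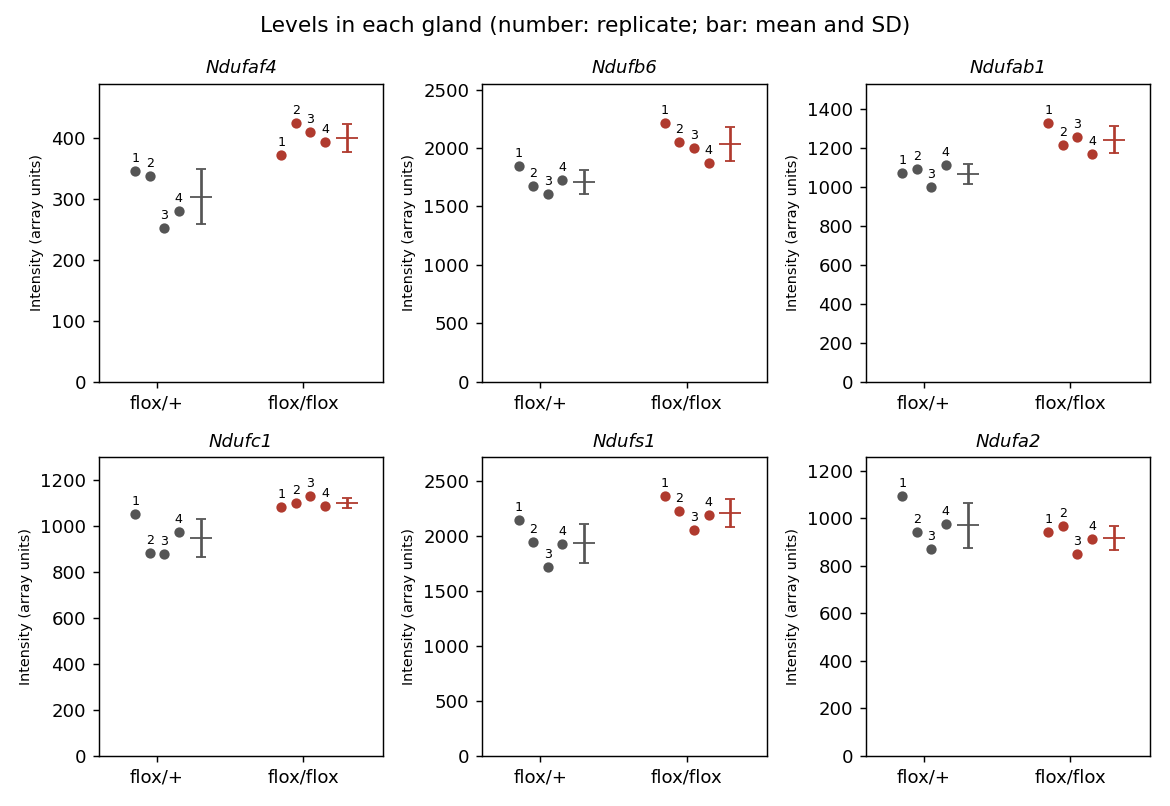
Intensity in each gland for 6 Nduf genes, with points numbered by replicate and bars for mean and SD (n = 4 per genotype). Ndufaf4, Ndufb6, Ndufab1 and Ndufc1 do not overlap between genotypes, Ndufs1 overlaps through control replicate 1, and Ndufa2 overlaps widely.

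Promoter sequences of the 4 members without overlap are shown to set their DNA beside their values. That of Ndufa11 is added as a member with a negative difference (-0.06) in its chosen probe set. All are RefSeq windows of assembly GRCm38.p6 and cover the 250 bases before the transcription start, 5′ to 3′ on the gene's strand. Ndufaf4 lies at chr4:24897833-24898082 (plus strand), Ndufb6 at chr4:40279422-40279671 (minus strand), Ndufab1 at chr7:122101849-122102098 (minus strand), Ndufc1 at chr3:51408956-51409205 (minus strand) and Ndufa11 at chr17:56717512-56717761 (plus strand). Capitals mark letters of the motifs searched: the NRF1 motif in Ndufaf4 and Ndufa11, the ETS motif, on the opposite strand, in Ndufb6 and a cyclic AMP response element in Ndufa11. The stretches of Ndufab1 and Ndufc1 hold none of the letters searched.
Ndufaf4: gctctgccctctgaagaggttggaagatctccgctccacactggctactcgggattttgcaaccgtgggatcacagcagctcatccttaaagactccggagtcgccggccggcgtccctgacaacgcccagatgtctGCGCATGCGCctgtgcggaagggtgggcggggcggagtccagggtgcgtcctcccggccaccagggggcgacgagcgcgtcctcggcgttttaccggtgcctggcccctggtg
Ndufb6: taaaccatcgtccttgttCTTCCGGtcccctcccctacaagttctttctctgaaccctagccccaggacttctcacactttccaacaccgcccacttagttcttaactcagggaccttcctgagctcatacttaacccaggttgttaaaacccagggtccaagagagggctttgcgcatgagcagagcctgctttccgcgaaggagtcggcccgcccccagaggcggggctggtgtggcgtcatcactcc
Ndufab1: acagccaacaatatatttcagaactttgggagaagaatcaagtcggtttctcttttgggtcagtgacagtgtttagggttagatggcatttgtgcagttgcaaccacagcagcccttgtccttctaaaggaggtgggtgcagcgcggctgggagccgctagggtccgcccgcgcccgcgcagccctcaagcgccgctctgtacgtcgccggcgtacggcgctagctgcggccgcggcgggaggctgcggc
Ndufc1: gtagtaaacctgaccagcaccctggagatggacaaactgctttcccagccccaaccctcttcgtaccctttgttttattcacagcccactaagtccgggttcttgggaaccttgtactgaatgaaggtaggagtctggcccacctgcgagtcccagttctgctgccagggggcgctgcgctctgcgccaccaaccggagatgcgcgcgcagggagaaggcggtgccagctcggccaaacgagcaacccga
Ndufa11: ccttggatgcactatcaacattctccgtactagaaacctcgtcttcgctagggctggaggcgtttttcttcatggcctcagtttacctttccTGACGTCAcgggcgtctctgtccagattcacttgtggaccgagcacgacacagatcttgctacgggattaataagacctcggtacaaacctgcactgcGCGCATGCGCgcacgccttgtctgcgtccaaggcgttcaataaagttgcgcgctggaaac

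NRF1, GABP of the ETS family, YY1 and the oestrogen-related receptors (ERR) are known regulators of nuclear genes for mitochondria. Their letters were searched on both strands from 250 bases before to 50 after the start, in the 38 members with a promoter in the table (it has none for Ndufa2, Ndufa4l2, Ndufaf6, Ndufb9 and Ndufs1) and in all 27025 genes there. The NRF1 palindrome, GCGCA followed by its reverse complement as capitalised in Ndufaf4, was in 3 members (7.89%) against 1.07% of all genes: Ndufaf4 (from position -113), Ndufa11 (from -60) and Ndufaf5 (from 17). The looser form GCGCAN followed by GCGC, which takes in the palindrome, was in 8 members (21.1%) against 5.19%. The YY1 letters AAGATGGCG were in 5 members (13.2%) against 1.64%, always just after the start, from position 23 in Ndufc1 to 36 in Ndufs4. CCGGAAG for ETS factors was in 5 (13.2%) against 9.93%, the cyclic AMP response element TGACGTCA in 3 (7.89%) against 2.03%, ACAATG for SOX factors in 4 (10.5%) against 14.3%, and the ERR motif TCAAGGTCA in none against 0.466%. Members' windows had a median GC content of 59.2% against 52.7% over all promoters, and base composition was not matched. Members that share the NRF1 palindrome had differences of 0.39, 0.11 and -0.06, and those with the YY1 letters ran from 0.10 in Ndufs4 to 0.22 in Ndufc1. A match of letters describes the sequence and does not show binding.

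Most members were lowest in the same control gland, while their highest values were spread more widely. Control replicate 3 held the lowest of the 8 values for 30 of the 43 members, where 12.3% of all genes have their lowest value. It held the lowest of the 4 controls for 36 members, against 24.0% of all genes. Flox/flox replicate 1 held the highest of the 8 for 20 members, against 12.4% of all genes. Flox/flox replicate 2 did so for 8, against 15.6% of all genes. Within the flox/flox mice replicate 4 was the lowest for 22 members, against 27.9% of all genes. It held the highest of 8 for none, against 7.79% of all genes. As the mean over members of log2 level minus each gene's own mean, the controls stood at 0.03, -0.06, -0.17 and -0.0014 and the flox/flox glands at 0.12, 0.09, 0.03 and -0.04, in order of replicate. Control replicates 1 and 4 lay above flox/flox replicate 4, so the genotypes overlapped in this mean. The range of a member over the 8 glands was 0.24 (Ndufaf2) to 0.71 (Ndufaf4) on the log2 scale, with a median of 0.40.

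**Figure D3:**
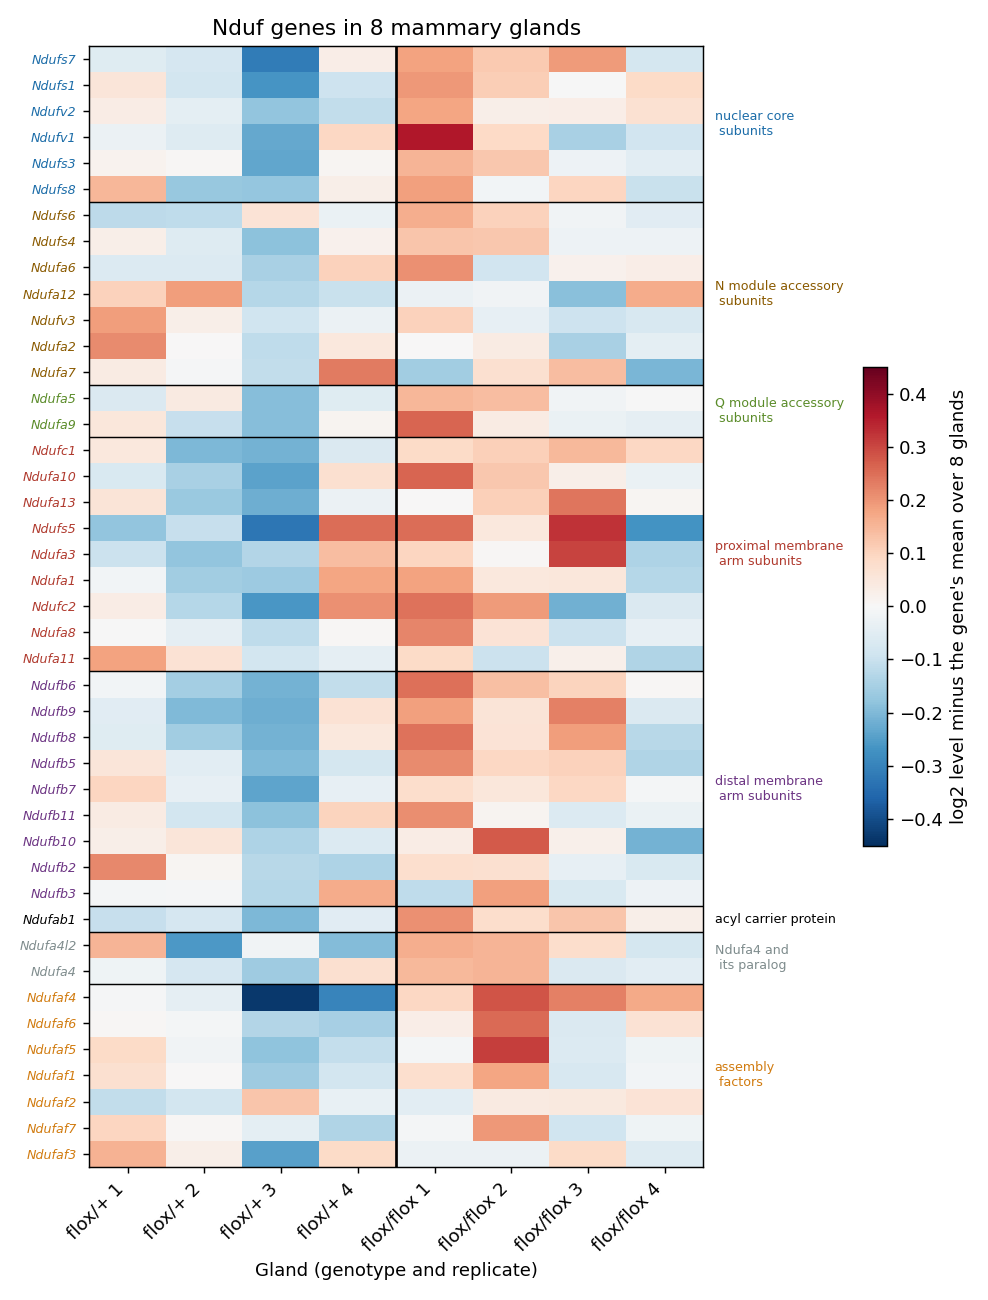
Log2 level of each Nduf gene minus its own mean over the 8 glands, with genes in rows grouped by role and glands in columns, controls on the left. Control replicate 3 is the bluest column, lowest for 30 of 43 genes (12.3% of all genes), and flox/flox replicate 1 is highest for 20 (12.4% of all genes).

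Genes of the other respiratory complexes also lay higher in flox/flox glands for the most part, without passing the test. Complex III had all 9 measured members positive, 5 with unadjusted p under 0.05 (all higher) and a median of 0.18, led by Uqcrc1 (0.28 ± 0.08, adjusted p = 0.288) and Uqcrfs1 (0.28 ± 0.09, adjusted p = 0.295). Complex II had 7 of 7 positive (median 0.11), with Sdhd at 0.23 ± 0.10. For complex IV 12 of 15 were positive (median 0.09), and for ATP synthase 11 of 16 (median 0.09). In limma's fit no gene of these 4 lists had an adjusted p under 0.05. At an unadjusted p under 0.05 complex II had 1 of 7, complex IV 3 of 15 and ATP synthase 2 of 16, all higher. Of all genes 4.81% were higher at that mark. Control replicate 3 was the lowest gland for each of the 4 list means, from -0.23 for complex III to -0.10 for ATP synthase. Regulators of mitochondrial genes had 10 of 14 positive and a median of 0.05. The coactivator Ppargc1a, a driver of mitochondrial growth, read 189, 155, 149 and 191 in controls and 306, 245, 204 and 174 in flox/flox glands (0.39 ± 0.15, adjusted p = 0.409). Tfb2m, of mitochondrial transcription, was at 0.19 ± 0.08 (adjusted p = 0.467).

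Brown and beige adipocyte markers had their lowest and highest glands in common with the members. Their mean was -0.13, -0.35, -0.39 and 0.13 in controls and 0.57, -0.02, -0.0024 and 0.19 in flox/flox glands, with control replicate 3 lowest and flox/flox replicate 1 highest. In the other glands the lists agreed less: the means had opposite signs in control replicates 1 and 4 and in flox/flox replicates 2, 3 and 4. Of 18 measured markers 14 had a positive difference (median 0.34). At an unadjusted p under 0.05 there were 6, all higher, against 4.81% of all genes, and none had an adjusted p under 0.05. The 4 negative markers were Lhx8 (-0.16), Tmem26 (-0.11), Zic1 (-0.08) and Tbx1 (-0.02), while Prdm16 (0.00065) and Kcnk3 (0.02) were near 0. The summed level of the 18 ran from 8263 to 13333 in controls and from 10925 to 18919 in flox/flox glands, and no marker was at 0. The smallest p in the list was that of Elovl3, a fatty acid elongase of brown fat, which read 191, 58.2, 43 and 288 in controls and 567, 457, 292 and 680.3 in flox/flox glands. Its groups did not overlap, and the difference was 1.94 ± 0.47 (adjusted p = 0.212). The defining gene Ucp1, the uncoupling protein of brown fat, read 2268, 1424, 1195 and 3462 in controls and 4393, 1525, 2661 and 3766 in flox/flox glands, with wide overlap. Cidea, a lipid droplet protein of brown fat, read 1943, 1855, 1302 and 1989 and 3013, 1928, 1656 and 2229. The list shares Cox7a1 and Cox8b with complex IV and Ppargc1a with the regulators.

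Lists of other cell types had smaller or negative medians. The fibroblast and matrix list had 10 of 13 genes negative and a median of -0.27. Of these, 6 had an unadjusted p under 0.05, against 5.46% of all genes lower. The list mean was highest in control replicate 3 (0.28), where the Nduf mean was lowest, and lowest in flox/flox replicate 2 (-0.32). Its summed level ran from 53804 to 68535 in controls and from 46662 to 58474 in flox/flox glands, with no gene at 0. White adipocyte genes had a median of -0.03, luminal genes -0.03, basal genes 0.14, macrophage genes 0.18 and endothelial genes -0.02. Lymphocyte and lymph node genes had a median of -0.27 over 12 genes, and summed levels of 1314 to 6553 in controls and 1331 to 1459.6 in flox/flox glands. The list mean was 1.53 in control replicate 2, against -0.29, -0.25 and -0.18 in control replicates 1, 3 and 4. In flox/flox replicates 1 to 4 it was -0.17, -0.22, -0.13 and -0.28. The list median without control replicate 2 was not computed. Control replicate 2 also had the highest sum, and its Nduf mean was -0.06. Without that gland the Nduf median was 0.10. The part of these cell types in the members' differences was not tested.

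**Figure D4:**
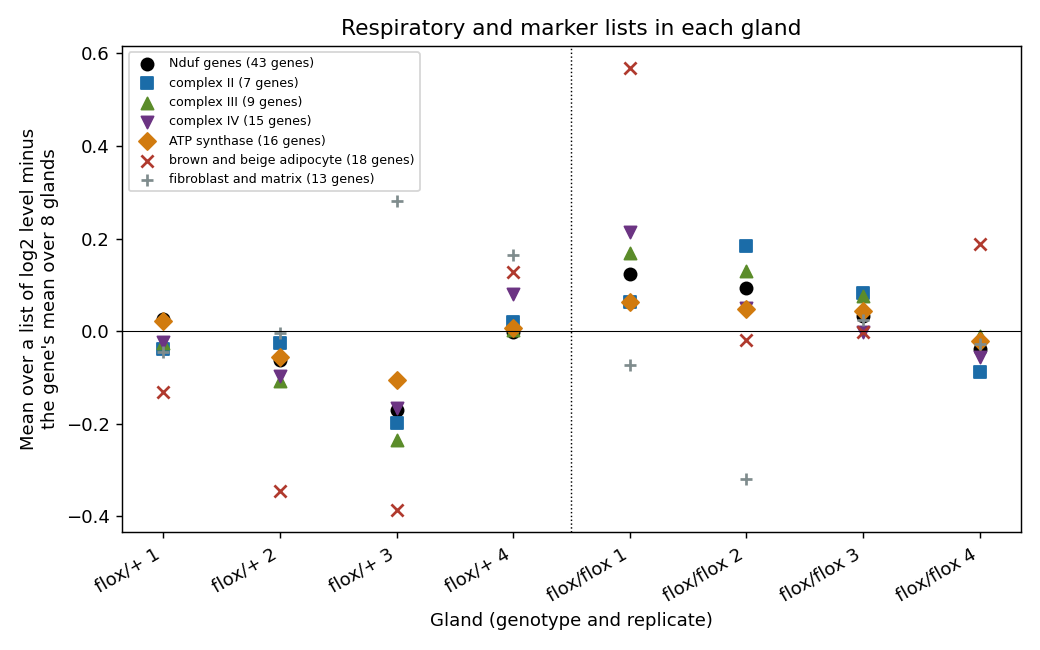
Mean over each list of log2 level minus the gene's own mean over 8 glands, plotted for each gland, controls on the left of the dotted line. Nduf genes, complexes II to IV and ATP synthase are all lowest in control replicate 3, and the brown and beige adipocyte list runs from -0.39 there to 0.57 in flox/flox replicate 1.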

How the data were processed

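RNA of 8 glands was measured on Affymetrix Gene 1.0 ST arrays. The deposited table gives linear intensity per probe set; the submitters' processing notes name PLIER and Affymetrix Expression Console 1.0. For background correction and normalization the method is not given in the sources used here, and detection calls were not used. Of 35557 probe sets 21789 had 1 gene symbol, 1621 several and 12147 none; the first kind gave 19938 genes, each by its probe set with the highest mean. All 43 members matched the RefSeq table of GRCm38.p6 by gene identifier.

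Values plus 16 were taken to log2 and quantile normalized over all probe sets, since the arrays' 10th percentiles spread by 0.245, which the intensities printed above have undergone. The test was lmFit and eBayes of limma 3.58.1 (R 4.3.3), with Benjamini-Hochberg adjustment over all genes and a threshold of 0.05. Sox9 was also tested by exact permutation in SciPy 1.17.1. The fit was tested on simulated data. The members and lists were chosen with earlier results of these data known. Full values are given for the core subunits, the 8 other members with the smallest p, the 3 with the lowest difference, Ndufa4, Ndufa4l2 and Ndufab1; from other lists up to 2 genes with the smallest p and defining markers. Alternatives were other normalizations, offsets of 1 and 64, a filter on low genes, other uses of probe sets, other variance models, array weights, the replicate number as a block and each array left out. The 8 glands are separate mice as far as the series' design text says.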

Additional observations from a re-analysis of the deposited data

Results flagged for a closer look

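In 2 of the 90 groups of 4 glands examined 1 gland stood far from the other 3, by a criterion that chance meets in about 5% of groups. Ndufs3 was lowest in control replicate 3, at 10.80 on the log2 scale (intensity 1770.0), against 11.04 (2090.0) in the next control. Ndufaf5 was highest in flox/flox replicate 2, at 7.36 (intensity 148), against 7.04 (116) in the next flox/flox gland.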

How the results depend on the processing

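No member had an adjusted p under 0.05 in any of the 19 alternatives, and the median stayed above 0 in all of them, from 0.04 to 0.13. The median over all genes ran from -0.0104 to 0.0145 in the same alternatives. The count of members with a positive difference was 36 in the reported setting, 38 with the values as deposited or with median centring (Ndufaf3 and Ndufb3 then being positive), and 33 to 38 with 1 array left out. Where arrays were left unnormalized or only centred, the all-gene median also moved up. It was 0.0145 and 0.013 there, against -0.0066 in the reported setting, so the rise to 38 is not particular to the members. The share of all genes with a positive difference was not computed for the alternatives. Members higher with an unadjusted p under 0.05 numbered 7 (4.81% of all genes), and 11 with the values as deposited, where 6.22% of all genes were. Leaving out 1 array gave 4 to 9, where 3.92% to 5.51% of all genes were called. The count was 4 without control replicate 2, control replicate 3 or flox/flox replicate 2. Without control replicate 3 and flox/flox replicate 1 together, chosen after seeing the data, the count was 1 (3.03% of all genes), Ndufs8 was at -0.0061 and Ndufv1 at -0.051; with 1 array left out these ran from 0.038 to 0.15 and from 0.0072 to 0.18. Members higher without overlap numbered 4 (2.74% of all genes), but 1, Ndufaf4, with median centring (3.25% of all genes), and 4 to 8 with 1 array left out (4.03% to 5.35% of all genes), with 8 without control replicate 1 and 7 without flox/flox replicate 4. Ndufa11 was at 0.0040 with the mean over its probe sets. The cause of these shifts was not tested. The labels do not say what equal replicate numbers mean, and same-numbered arrays' deviations correlated at -0.20, 0.06, 0.21 and -0.09. With the replicate block 5 members were higher with an unadjusted p under 0.05 (4.43% of all genes). In that fit 4 were higher without overlap (2.74% of all genes) and the smallest adjusted p was 0.269. The absence of detection calls limits Ndufa4l2 and Ndufaf5 most, whose values were among the lowest of the members.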
